A study of Mus musculus with 8 samples.

Results

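Solute carriers are membrane proteins that move ions, sugars, amino acids, nucleotides, metals and vitamins across cell and organelle membranes, and their genes carry the stem Slc followed by a family number. The set described here holds every gene whose name on the array starts with Slc and a digit, each represented by its brightest probe and kept where that probe was well above background on all 8 arrays. The rule kept 164 of 308 such names, out of 27949 gene names on the array, of which 11375 were well above background on all 8 arrays. The Slc25 family supplied 22 of the 164 members and 38 other families supplied the other 142. Some members are not themselves carriers: Slc4a1ap, Slc7a6os, Slc9a3r1 and Slc9a3r2 are named after a carrier that they bind, regulate or lie opposite to, and Slc3a2 is a subunit shared by several amino acid exchangers.

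Slc25 carriers sit in the inner mitochondrial membrane, where they exchange citrate, phosphate, ADP and ATP, amino acids, cofactors and iron with the cytosol; Slc25a17 is the exception, being found in peroxisomes. Their mRNAs come from nuclear genes and are translated in the cytosol, and the proteins are imported into the mitochondrion afterwards. Most other families work at the plasma membrane, the Golgi apparatus, lysosomes or vesicles, and their proteins enter the membrane at the endoplasmic reticulum during translation. Embryonic stem (ES) cells divide fast and take up glucose, glutamine and other amino acids through such carriers.

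The samples came from a re-derived transgenic mouse ES cell line called Dazl-GFP, kept on irradiated mouse embryonic fibroblast feeders in medium with 15% serum, leukemia inhibitory factor, 1 µM of the MEK inhibitor PD0325901 and 3 µM of the GSK3β inhibitor CHIR99021 (the pair known as 2i). RNA was recovered by native immunoprecipitation (IP) with an anti-GFP antibody (3 arrays) or an anti-PABP1 antibody (2 arrays), and total RNA without antibody served as input (3 arrays). PABP1 is a protein that binds the poly(A) tail of mRNAs and takes part in their translation, and DAZL, made in germ cells, binds mRNAs through sites in the 3′ untranslated region. All 3 groups share the line, the feeders and the medium, and an IP with an unrelated antibody is not among the samples analysed here, so bound RNA is not separated from RNA that the beads hold on their own. The labels give neither the promoter that drives the transgene nor whether GFP is joined to DAZL, and they do not name the culture behind each array, so the tests weigh differences against a spread between samples that may be technical.

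Levels are given as relative signal, the brightness of a gene's probe divided by the 75th percentile of all probe spots on the same array, so a gene is compared between RNA samples as a share of each, and no level is set against that of another gene. On each array 41.5% to 52.6% of 43379 probe spots were well above background and 0 were saturated. Across the genes on all arrays, which are not independent replicates, correlations of log2 signal were 0.98 to 0.996 within groups and 0.84 to 0.913 between groups. The arrays lay on 2 slides that each held all 3 groups. Deviations from group means correlated at 0.43 to 0.86 for arrays of the same slide and at −0.86 to −0.29 for arrays of different slides. Slide 1 held Input 1, Input 2, PABP1 IP 1 and GFP IP 2, and slide 2 held Input 3, PABP1 IP 2, GFP IP 1 and GFP IP 3. Every comparison within a slide thus has a group with a single array. Only an effect size within each slide is therefore given, for the main result. The 20 alternative settings under which calls are followed below nevertheless include the fits within each slide. A call kept or lost there rests on a group with a single array. Dazl mRNA had a relative signal of 8.73 to 14.4 in the GFP IPs, 0.23 to 0.235 in the PABP1 IPs and 0.655 to 0.851 in the inputs. All 14 ES cell markers on the array were well above background on every array, and so were 27 of 30 feeder fibroblast markers. The summed relative signal of those 27 was 187 to 242 in the GFP IPs, 575 to 598 in the PABP1 IPs and 420 to 534 in the inputs. That of the 14 ES cell markers was 1620 to 2160, 2100 to 4030 and 2320 to 4310 in the same groups. Dppa5 alone gave 907 to 1390 of it in the GFP IPs and 1730 to 3660 in the inputs. In GFP IP over input 4 of the 27 feeder markers were higher and 20 lower. Of the 14 ES cell markers 8 were higher and 2 lower, and of all genes 22.5% and 47.5%. Carrier mRNA from feeders and from ES cells cannot be told apart in these bulk samples, nor can fewer cells of a type and less RNA per cell. The part of these marker shifts in the results below was not tested.

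The members were chosen by their brightness and by the detection flag on these same arrays, so detection is given only as a description. Probes on all 8 arrays made up 53.2% of Slc names, 68.8% of Slc25 names and 40.7% of all gene names. Of the remaining Slc names, 40 were detected on all arrays of 1 group or more and so entered the fit without being members, and 83 were well above background on no array. The dimmest members were Slc6a3, a dopamine transporter gene, with a mean processed intensity of 20.3 over the arrays, and Slc2a6 with 21.6. Just outside the rule were 10 names that missed it on 1 array, such as Slc22a8 with a mean intensity of 21.7, Slc25a27 with 28.4 and Slc8a2, a sodium/calcium exchanger gene, with 54.

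Taken as a set, the 164 carriers moved about as genes in general did in GFP IP over input. In PABP1 IP over input a smaller share of them was higher. Differences were tested with limma on log2 relative signal and counted as higher or lower at a Benjamini-Hochberg adjusted p under 0.05 over 14728 tested genes. In GFP IP over input, 36 members (22.0%) were higher and 79 (48.2%) lower, against 22.5% higher and 47.5% lower among the 11375 genes on all arrays. In PABP1 IP over input, 43 members (26.2%) were higher and 47 (28.7%) lower, against 36.4% and 28.2% of those genes. Between the IPs, in GFP IP over PABP1 IP, 34 members (20.7%) were higher and 75 (45.7%) lower, against 25.1% and 49.3%. The median of all genes on all arrays was itself shifted, by −0.48, 0.16 and −0.57 on the log2 scale in these 3 comparisons, and the members' medians were −0.50, −0.01 and −0.45.

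These splits depend on how arrays are scaled. Of the members' calls, 31.3%, 47.8% and 31.2% were on the higher side in the 3 comparisons, in the order above. With each array scaled to its median spot these shares were 54.8%, 52.5% and 55.9%. With differences centred on the median gene they were 53.5%, 33.7% and 68.1%, with the percentile taken over probes detected on all arrays 38.8%, 34% and 53.8%, and with quantile normalization 38.7%, 37% and 46.4%. A second background correction, normexp on the raw spot and local background intensities, left 5 higher and 15 lower members in GFP IP over input, 6 and 6 in PABP1 IP over input, and 14 and 30 between the IPs. Values relative to the median gene are therefore given beside the main ones.

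The split into Slc25 and the other families showed its widest gap in the PABP1 IP. Of the 22 Slc25 mRNAs, 15 were higher and 4 lower in PABP1 IP than in input (68.2% and 18.2%, against 36.4% and 28.2% of all genes), with a median log2 difference of 0.77, or 0.61 above the median gene. Of the 142 mRNAs of other families, 28 were higher and 43 lower (19.7% and 30.3%), with a median of −0.12, or 0.28 below the median gene. Above the median gene stood 17 of the 22 Slc25 mRNAs and 54 of the 142 others. Within slide 1 the Slc25 median was 0.52 above the median gene, and within slide 2 it was 0.63 above it. Over all 20 settings of the fit, 16 or 17 Slc25 mRNAs stood above the median gene and the Slc25 median was 0.42 to 0.65 above it, although with normexp only 3 were called higher and 1 lower.

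**Figure D1:**
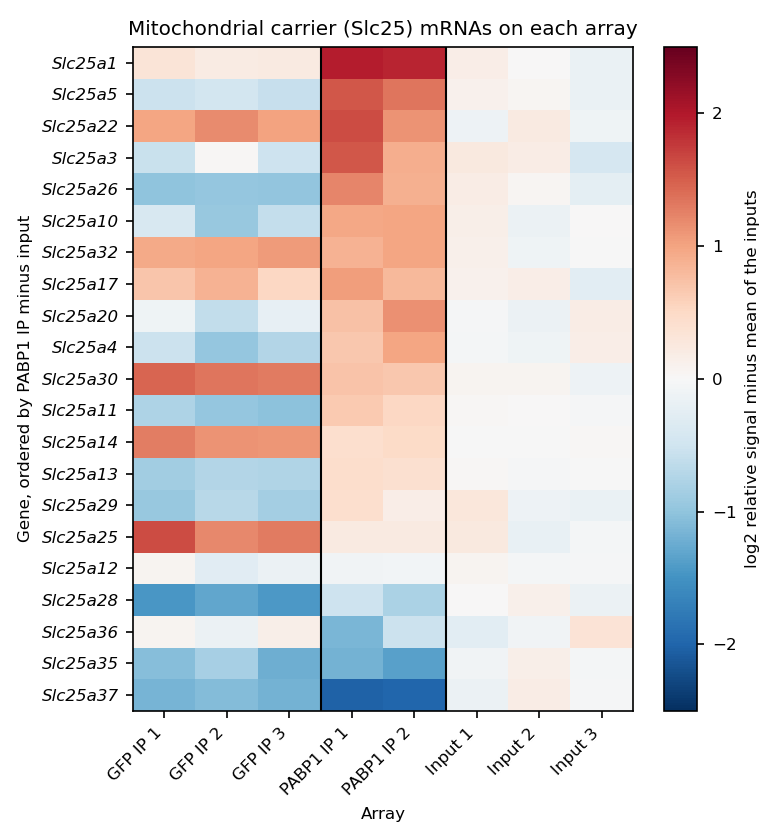
Log2 relative signal of 21 of the 22 Slc25 mRNAs on each of the 8 arrays (columns: 3 GFP IPs, 2 PABP1 IPs, 3 inputs), minus the mean of the 3 inputs for the same gene, with red for higher and blue for lower. Rows run by the log2 difference in PABP1 IP over input, with Slc25a1 at 1.93 on top and Slc25a37 at −2.01 at the bottom, and both PABP1 arrays are red for every plotted gene that was called higher.

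Slc25a1, Slc25a10 and Slc25a11, which carry citrate and other carboxylates, were higher in the PABP1 IP. Slc25a1, the citrate carrier that exports citrate for lipid synthesis, had a relative signal of 22.9 and 22.0 in the PABP1 IPs, against 6.62, 5.89 and 5.24 in the inputs. Both PABP1 arrays lay above every input, 3.81-fold higher on average (log2 1.93 ± 0.14 SE, adjusted p = 4.12e-05). Slc25a10, the dicarboxylate carrier, read 4.10 and 4.16 in the PABP1 IPs, against 2.30, 1.88 and 2.10 in the inputs (log2 0.98 ± 0.18, adjusted p = 0.00278). Slc25a11, which exchanges oxoglutarate for malate, was also higher (log2 0.59 ± 0.13, adjusted p = 0.00605), a call that was lost with quantile normalization (log2 0.09).

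The ADP/ATP carrier mRNAs Slc25a5 and Slc25a4 were also higher. Slc25a5, an ADP/ATP carrier, had a relative signal of 398 and 341 in the PABP1 IPs, against 146, 139 and 121 in the inputs. That is 2.73-fold higher (log2 1.45 ± 0.14, adjusted p = 0.000129), with no overlap between the groups. Its relative Slc25a4, the other ADP/ATP carrier on the list, read 241 and 302 in the PABP1 IPs, against 146, 141 and 169 in the inputs (log2 0.83 ± 0.18, adjusted p = 0.00594), and with quantile normalization the difference was 0.00. Slc25a3, the phosphate carrier, was called higher at the probe used, with 68.3 and 43.6 in the PABP1 IPs, against 27.5, 26.4 and 17.3 in the inputs (log2 1.23 ± 0.30, adjusted p = 0.0103). Its second probe went the other way (log2 −0.96), the mean of its probes gave 0.14, and the call was lost without PABP1 IP 1 (log2 0.91, adjusted p = 0.0758), so its direction is uncertain.

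Other Slc25 mRNAs that were higher code for carriers of cofactors, amino acids and fatty acids. Slc25a26, which brings in the methyl donor S-adenosylmethionine, had a relative signal of 5.98 and 4.75 in the PABP1 IPs, against 2.91, 2.65 and 2.15 in the inputs (log2 1.06 ± 0.17, adjusted p = 0.00139). Slc25a22, a glutamate carrier, read 0.827 and 0.584 in the PABP1 IPs, against 0.247, 0.313 and 0.251 in the inputs (log2 1.37 ± 0.19, adjusted p = 0.000721). The groups did not overlap for either gene. Higher as well were Slc25a32, a folate carrier (log2 0.94 ± 0.13), the peroxisomal Slc25a17 (0.93 ± 0.18), Slc25a20, the carnitine/acylcarnitine carrier (0.93 ± 0.21), and Slc25a30 and Slc25a14, relatives of the uncoupling proteins (0.70 ± 0.13 and 0.44 ± 0.12). The aspartate/glutamate carrier gene Slc25a13 was higher by 0.42 ± 0.11, while its paralog Slc25a12 (−0.08 ± 0.14, adjusted p = 0.636), Slc25a25 (0.22 ± 0.19, adjusted p = 0.342) and Slc25a29 (0.29 ± 0.18, adjusted p = 0.204) did not pass the test. Slc25a13 and Slc25a14 were no longer called without PABP1 IP 1 (adjusted p = 0.075 and 0.0523) or without PABP1 IP 2 (adjusted p = 0.0594 and 0.0722), and Slc25a20 was not called without PABP1 IP 2 (adjusted p = 0.0571).

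The 4 Slc25 mRNAs that were lower in the PABP1 IP included both mitoferrins, the carriers of iron for heme and iron-sulfur clusters. Slc25a37 (mitoferrin-1) had a relative signal of 0.779 and 0.795 in the PABP1 IPs, against 2.86, 3.57 and 3.09 in the inputs, 4.02-fold lower (log2 −2.01 ± 0.13, adjusted p = 3.43e-05). Slc25a28 (mitoferrin-2) read 16.6 and 13.7 in the PABP1 IPs, against 24.1, 25.9 and 21.6 in the inputs (log2 −0.66 ± 0.15, adjusted p = 0.00624). Neither gene's groups overlapped, but the second probe of Slc25a37 gave only −0.33, and Slc25a28 was not called without PABP1 IP 2 (adjusted p = 0.0517). The other lower mRNAs were Slc25a35, an orphan member (log2 −1.27 ± 0.16, adjusted p = 0.000444), and Slc25a36, a pyrimidine nucleotide carrier (log2 −0.84 ± 0.25, adjusted p = 0.0206), whose call was lost without PABP1 IP 1 (adjusted p = 0.144). Under all 20 alternative settings, Slc25a1, Slc25a5 and Slc25a26 kept their higher call and Slc25a37 its lower one, and leaving normexp aside, Slc25a10, Slc25a17, Slc25a22, Slc25a30 and Slc25a32 also kept the higher call and Slc25a35 the lower one.

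In the GFP IP the same family stood close to the median gene. Of the 22 Slc25 mRNAs, 6 were higher and 11 lower in GFP IP than in input (27.3% and 50%, against 22.5% and 47.5% of all genes). Their median log2 difference was −0.44, which is 0.04 above the median gene, and that of the 142 others was −0.50, with 30 higher and 68 lower. Over the 20 settings of the fit, the Slc25 median ran between −0.08 and 0.17 relative to the median gene.

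The 6 higher Slc25 mRNAs were spread over several substrates. Slc25a25, an ATP-Mg/phosphate carrier, had a relative signal of 13.6, 10.1 and 10.8 in the GFP IPs, against 5.17, 3.85 and 4.22 in the inputs, 2.6-fold higher (log2 1.38 ± 0.17, adjusted p = 0.000344). Slc25a30 read 1.84, 1.71 and 1.66 in the GFP IPs, against 0.706, 0.707 and 0.613 in the inputs (log2 1.37 ± 0.11, adjusted p = 7.48e-05). Its relative Slc25a14 read 8.42, 7.55 and 7.47 in the GFP IPs, against 3.44, 3.47 and 3.53 in the inputs (log2 1.16 ± 0.10, adjusted p = 9.64e-05). Every GFP array lay above every input for these 3 genes. Slc25a22 (1.06 ± 0.17), Slc25a32 (1.00 ± 0.11) and Slc25a17 (0.70 ± 0.17) completed the group, and these 3, with Slc25a14 and Slc25a30, were higher in both IPs than in input. The 6 higher calls held in every alternative setting but normexp, under which limma called 0 Slc25 mRNAs in either direction (3 higher and 3 lower at an unadjusted p under 0.05).

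Mitoferrins were again on the lower side. Slc25a28 had a relative signal of 8.73, 9.69 and 8.74 in the GFP IPs, against 24.1, 25.9 and 21.6 in the inputs, 2.63-fold lower (log2 −1.39 ± 0.13, adjusted p = 0.000116), and Slc25a37 was 2.20-fold lower (log2 −1.14 ± 0.12, adjusted p = 0.000195), with −0.23 at its second probe. Slc25a35 (−1.04 ± 0.14) and Slc25a26 (−0.99 ± 0.15) were lower by a like amount, and the second probe of Slc25a26 gave −0.01. The lower calls of Slc25a4, Slc25a5, Slc25a10, Slc25a11, Slc25a13 and Slc25a29 ran between −0.92 and −0.53 and did not survive scaling to the median spot, under which Slc25a5 was at 0.01. Relative to the median gene these 6 stood at −0.44 to −0.05.

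Set side by side, the ADP/ATP carrier Slc25a5 and the citrate carrier Slc25a1 were among the Slc25 mRNAs that differed most between the IPs. In GFP IP over PABP1 IP, 5 Slc25 mRNAs were higher and 12 lower (22.7% and 54.5%, against 25.1% and 49.3% of all genes), with a median of −0.93, or 0.36 below the median gene. Among the lowest were Slc25a26 (log2 −2.05 ± 0.17), Slc25a5 (−1.98 ± 0.14) and Slc25a1 (−1.68 ± 0.14), with adjusted p between 2.28e-05 and 4.46e-05. For Slc25a5 the relative signal was 92.4, 97.5 and 90.7 in the GFP IPs, against 398 and 341 in the PABP1 IPs, which do not overlap. Higher in the GFP IP were Slc25a25 (1.16 ± 0.19), Slc25a37 (0.87 ± 0.13, and 0.10 at its second probe), Slc25a36 (0.86 ± 0.25), Slc25a14 (0.72 ± 0.12) and Slc25a30 (0.66 ± 0.13). Slc25a36 was not called without PABP1 IP 1 (adjusted p = 0.119). The 3 comparisons share arrays, so they are not independent of each other.

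Array by array, the gap between Slc25 and the rest followed the group. With each gene centred on the mean of its 3 group means, the Slc25 median minus that of the other families was −0.04, −0.13 and −0.13 in the GFP IPs, 0.42 and 0.31 in the PABP1 IPs, and −0.34, −0.38 and −0.21 in the inputs, on the log2 scale. The means were −0.10 ± 0.05 (SD, n = 3) in the GFP IPs, 0.37 ± 0.08 (n = 2) in the PABP1 IPs and −0.31 ± 0.09 (n = 3) in the inputs, and no group overlapped another. As a difference between group medians of the members' log2 changes, Slc25 exceeded the others by 0.06 in GFP IP over input and by 0.89 in PABP1 IP over input, and stood 0.49 below them between the IPs.

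**Figure D2:**
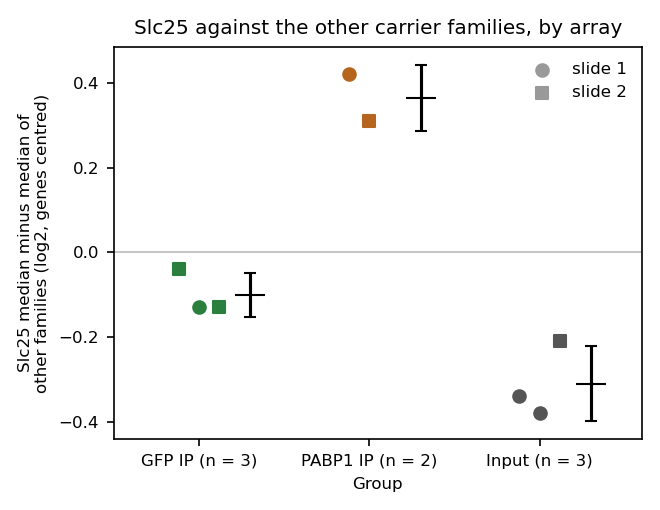
Median log2 relative signal of the 22 Slc25 mRNAs minus that of the 142 mRNAs of other families, 1 point per array (circles slide 1, squares slide 2). Each gene was centred on the mean of its 3 group means. Bars show the mean ± SD of 3 GFP IPs, 2 PABP1 IPs and 3 inputs. The PABP1 IPs sit at 0.42 and 0.31, above every GFP IP and every input, on both slides.

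Mitochondrial transport genes outside the Slc names were mostly higher in the PABP1 IP as well. Of 26 genes of the protein import machinery of the mitochondrial membranes, limma called 20 higher and 0 lower in PABP1 IP than in input (also 0 lower at an unadjusted p under 0.05), against 36.4% and 28.2% of all genes, with a median of 1.61. That is 1.44 above the median gene, and 0.86 to 1.73 above it over the 20 settings. The list was chosen with earlier results of these data known, so its direction is no independent evidence. Timm23, the inner membrane channel, was higher by 2.45 ± 0.24 (adjusted p = 0.00015), Timm22, the insertase for carriers of the Slc25 kind, by 1.40 ± 0.27 (adjusted p = 0.00307), and Tomm20, the outer membrane receptor, by 2.80 ± 0.15 (adjusted p = 1.9e-05). Brp44l and Brp44, the older names of the mitochondrial pyruvate carrier subunits Mpc1 and Mpc2, were higher by 3.04 ± 0.18 and 2.22 ± 0.18 (adjusted p = 2.26e-05 and 6.71e-05), and the uncoupling protein gene Ucp2 by 1.87 ± 0.24 (adjusted p = 0.000513). Sideroflexins, mitochondrial amino acid carriers of another kind, did not share this: Sfxn5 (−1.77 ± 0.14), Sfxn4 (−1.99 ± 0.49) and Sfxn2 (−1.50 ± 0.12) were lower, and Sfxn1 and Sfxn3 did not pass the test. Slc24a6, which RefSeq now calls Slc8b1 and which exchanges sodium for calcium at the mitochondrial inner membrane, was at 0.02 ± 0.15 in PABP1 IP over input (adjusted p = 0.934).

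Among the classes of other families with at least 16 members, amino acid and ion carriers had the lowest medians in the PABP1 IP. Carriers were put in classes by family number. A class can therefore hold carriers of other substrates, such as the dopamine transporter gene Slc6a3 in the amino acid class. Of the 28 members of the amino acid class 1 was higher and 13 lower than in input (3.57% and 46.4%, against 36.4% and 28.2% of all genes). Their median was −0.56, and 2 of the 28 stood above the median gene. Of 24 ion and bicarbonate carriers 2 were higher and 14 lower (8.33% and 58.3%), with a median of −0.62. The 6 monocarboxylate and dicarboxylate carriers had a median of −0.82, with 3 of them lower. Over the 20 settings of the fit, the amino acid median ran between −0.91 and −0.49 relative to the median gene. The ion median ran between −0.80 and −0.49. Among families with at least 3 members, every member of 2 families was lower. In Slc1 the 5 glutamate and neutral amino acid carriers were between −1.20 and −0.79. In the cation-chloride cotransporter family Slc12 the 7 members were between −1.51 and −0.44. With normexp limma called 0 of these 12 (2 of the 5 and 2 of the 7 were lower at an unadjusted p under 0.05).

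**Figure D3:**
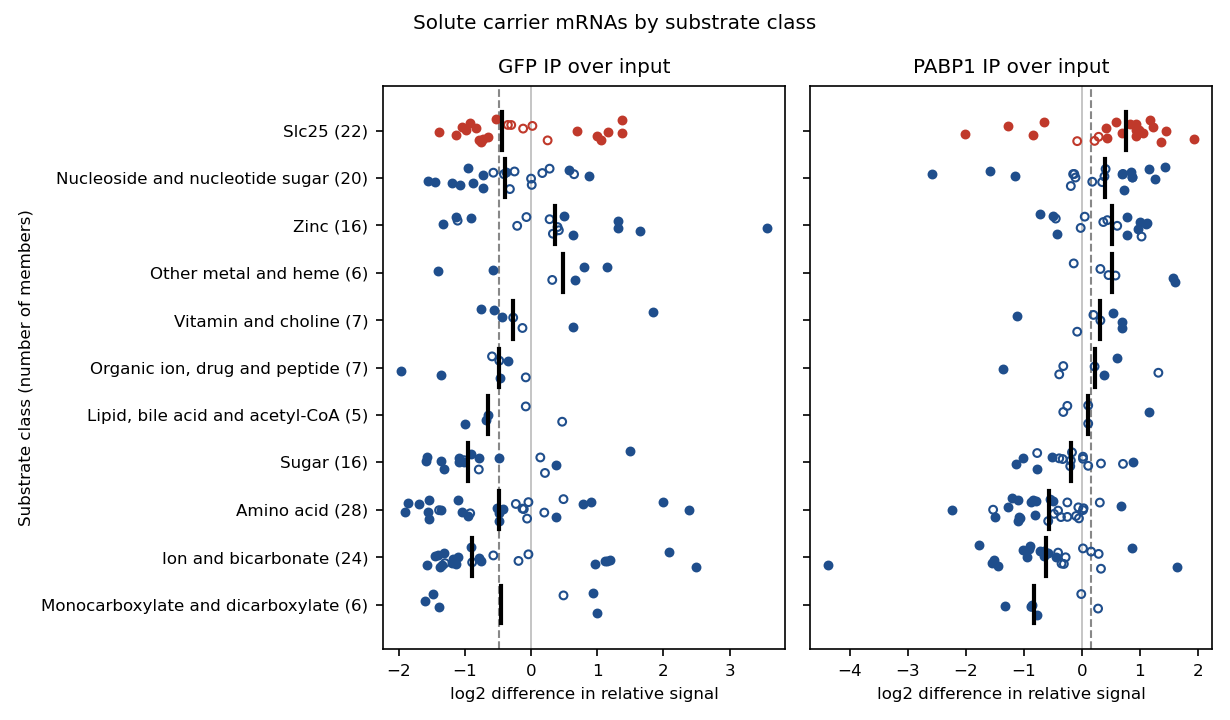
Log2 difference in relative signal for each member, by substrate class (rows, with the number of members), in GFP IP over input (left) and PABP1 IP over input (right); filled points passed adjusted p under 0.05, black bars are class medians and the dashed line is the median of the 11375 genes on all arrays. In the right panel the Slc25 bar is at 0.77 and the amino acid and ion bars at −0.56 and −0.62. Classes were assigned by family number, and those with under 5 members are left out.

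At the probes used, the 3 lowest carriers in the PABP1 IP fell by more than any Slc25 member. Slc4a7, a sodium bicarbonate cotransporter, had a relative signal of 1.89 and 3.84 in the PABP1 IPs, against 70.0, 30.0 and 82.2 in the inputs (log2 −4.37 ± 0.79, adjusted p = 0.00239). Slc35d1, which carries UDP-glucuronic acid into the endoplasmic reticulum, read 0.346 and 0.314 in the PABP1 IPs, against 2.20, 1.94 and 1.85 in the inputs, 6.04-fold lower (log2 −2.59 ± 0.15, adjusted p = 2.34e-05). Slc6a6, the taurine transporter, read 6.61 and 5.24 in the PABP1 IPs, against 23.3, 36.1 and 25.9 in the inputs (log2 −2.24 ± 0.34, adjusted p = 0.000997). In none of the 3 did a PABP1 array reach the lowest input. A second probe gave −0.88 for Slc6a6 and −2.39 for Slc25a36, so the place of Slc6a6 below every Slc25 member depends on the probe. Slc4a8, a sodium-driven chloride/bicarbonate exchanger, was lower by −1.78 ± 0.13, and Slc28a3, a nucleoside transporter, by −1.59 ± 0.20. Slc12a2, the sodium-potassium-chloride cotransporter, was lower by −1.44 ± 0.37 (adjusted p = 0.0125) and was not called without PABP1 IP 2 (adjusted p = 0.0766).

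Nucleotide sugar and zinc carriers were called higher in the PABP1 IP about as often as genes in general. In the Slc35 family, which brings nucleotide sugars into the Golgi apparatus and endoplasmic reticulum, 7 of 16 were higher and 2 lower, with a median of 0.55. Slc35a3, the carrier of UDP-N-acetylglucosamine, had a relative signal of 1.51 and 1.16 in the PABP1 IPs, against 0.558, 0.542 and 0.380 in the inputs (log2 1.44 ± 0.24, adjusted p = 0.00179). Of the zinc carriers (families Slc30 and Slc39) 6 of 16 were higher and 3 lower, with a median of 0.52. Of all genes 36.4% were higher and 28.2% lower. The highest members outside Slc25 were Slc20a2, a phosphate transporter (1.05 and 1.08 in the PABP1 IPs, against 0.351, 0.294 and 0.390 in the inputs, log2 1.64 ± 0.16, adjusted p = 0.000147), Slc11a1, a phagosomal metal transporter (log2 1.61 ± 0.15), Slc31a2, of the copper carrier family (1.58 ± 0.19), and Slc29a4, a monoamine transporter (1.26 ± 0.21). Slc11a1 and Slc31a2 kept their call in all 20 alternative settings.

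Among the classes with at least 16 members, zinc carriers alone had more higher than lower calls in the GFP IP. Of 16, 6 were higher and 3 lower than in input (37.5% and 18.8%, against 22.5% and 47.5% of all genes), with a median of 0.37, or 0.85 above the median gene. Over the 20 settings that distance ran between 0.45 and 0.99, while under normexp Slc39a10 alone was called. Slc39a10, a zinc importer of the plasma membrane, was the highest of all 164 members: it had a relative signal of 3.23, 4.28 and 3.90 in the GFP IPs, 0.628 and 0.655 in the PABP1 IPs, and 0.483, 0.309 and 0.221 in the inputs. It was 11.8-fold higher in GFP IP than in input (log2 3.56 ± 0.28, adjusted p = 6.32e-05). Slc39a6, its partner in heteromers, had 22.2, 21.1 and 20.1 in the GFP IPs, 4.58 and 4.95 in the PABP1 IPs, and 6.76, 6.74 and 6.73 in the inputs (log2 1.64 ± 0.10 in GFP IP over input, adjusted p = 2.93e-05). For both genes every GFP array lay above all others, and in PABP1 IP over input Slc39a10 was higher (1.00 ± 0.31, adjusted p = 0.0266) and Slc39a6 lower (−0.50 ± 0.11, adjusted p = 0.00693). The class was not uniform, since Slc39a7 (−1.33) and Slc39a4 (−1.13), chosen after their values were seen, were lower in GFP IP than in input.

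Of the 28 members of the amino acid class 5 were higher and 14 lower in GFP IP than in input (17.9% and 50%), near the 22.5% and 47.5% of all genes. The higher side included the large neutral amino acid exchangers Slc7a5 and Slc7a8, which bring leucine and other essential amino acids into the cell. Slc7a5 had a relative signal of 84.2, 43.4 and 73.1 in the GFP IPs, 8.25 and 14 in the PABP1 IPs, and 13.7, 12.6 and 24.1 in the inputs. The GFP arrays stood clear of the rest, 4-fold above input (log2 2.00 ± 0.36, adjusted p = 0.0024). Slc7a8 had 6.30, 3.69 and 5.31 in the GFP IPs, 0.735 and 1.14 in the PABP1 IPs, and 0.843, 0.869 and 1.18 in the inputs (log2 2.39 ± 0.27 in GFP IP over input, adjusted p = 0.000246). The shared heavy chain of these exchangers, Slc3a2, did not go with them: it read 91.1, 91.4 and 79.7 in the GFP IPs, against 136, 131 and 100 in the inputs (log2 −0.48 ± 0.18, adjusted p = 0.0481). That borderline call turned to 0.06 with scaling to the median spot, 0.01 with quantile normalization and 0.03 with centring, and without Input 1 its adjusted p was 0.138, and it was lost without each of 4 other arrays (Input 2 and each GFP IP). The cationic amino acid transporter Slc7a3 was above input in all 3 GFP IPs (log2 0.91 ± 0.22, adjusted p = 0.00804). Slc38a2, a glutamine and alanine carrier, was higher by 0.79 ± 0.12 at the probe used, but its second probe gave −0.61.

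In the Slc1 family of glutamate and neutral amino acid carriers, 4 of 5 were lower in GFP IP than in input, where 47.5% of all genes were lower. The glutamate carrier gene Slc1a1 was at −0.06 (adjusted p = 0.824). Slc1a5, the main glutamine carrier of proliferating cells, had a relative signal of 26.8, 32.5 and 27.1 in the GFP IPs, 72.9 and 50.4 in the PABP1 IPs, and 121, 118 and 80.0 in the inputs. It was 3.64-fold lower in GFP IP than in input (log2 −1.86 ± 0.22, adjusted p = 0.000307), and the PABP1 IPs lay between the other groups. Slc1a6, a glutamate carrier first described in the cerebellum, was 3.77-fold lower (log2 −1.91 ± 0.14, adjusted p = 4.49e-05), and Slc7a4, an orphan relative of the cationic carriers, 3.23-fold lower (log2 −1.69 ± 0.17, adjusted p = 0.000148). Slc1a6 kept its call in all 20 alternative settings. Slc7a4 kept its direction in all of them but lost its call with normexp. In PABP1 IP over input Slc1a5 was lower by −0.79 ± 0.24 (adjusted p = 0.0265), a call lost without Input 1, Input 2 or PABP1 IP 2 (adjusted p = 0.073, 0.0778 and 0.171).

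Glucose and lactate carriers of the same family did not move together in the GFP IP. Slc2a3, a high-affinity glucose transporter, had a relative signal of 646, 933 and 566 in the GFP IPs, 147 and 143 in the PABP1 IPs, and 255, 285 and 214 in the inputs, so every GFP array lay above every other. It was 2.80-fold higher in GFP IP than in input (log2 1.49 ± 0.21, adjusted p = 0.000706) and 4.82-fold higher than in PABP1 IP (log2 2.27 ± 0.23, adjusted p = 0.000114). Slc2a1, the basal glucose transporter, had 125, 206 and 104 in the GFP IPs, 187 and 125 in the PABP1 IPs, and 299, 321 and 184 in the inputs, with overlap between groups (log2 −0.91 ± 0.33 in GFP IP over input, adjusted p = 0.044). That call was lost in 11 of 20 alternative settings, among them the fits without Input 1 or 2 (adjusted p = 0.122 and 0.129) and those without GFP IP 1 or 3 (adjusted p = 0.118 and 0.136). Slc2a4, the insulin-responsive glucose transporter, was 2.98-fold lower in GFP IP than in input (log2 −1.58 ± 0.11, adjusted p = 4.6e-05). In the whole sugar class 2 of 16 were higher and 10 lower (12.5% and 62.5%, against 22.5% and 47.5% of all genes). Of the lactate carriers, Slc16a1 had a relative signal of 56.0, 33.9 and 53.3 in the GFP IPs, against 18.7, 21.6 and 31.9 in the inputs (log2 0.99 ± 0.30, adjusted p = 0.022), and Slc16a3 had 72.8, 91.4 and 72.5 in the GFP IPs, against 248, 284 and 195 in the inputs (log2 −1.61 ± 0.18, adjusted p = 0.000278). Slc16a1 was not called when Input 1 or 2 was left out (adjusted p = 0.0739 and 0.0662), nor when GFP IP 1 or 3 was (adjusted p = 0.0738 and 0.0713).

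Other members at the top of the GFP IP were carriers of organelles and of vitamin C. Slc17a5, the lysosomal sialic acid exporter, had a relative signal of 0.905, 1.33 and 1.21 in the GFP IPs, 0.251 and 0.265 in the PABP1 IPs, and 0.179, 0.235 and 0.181 in the inputs, 5.76-fold above input (log2 2.53 ± 0.18, adjusted p = 4.9e-05). Slc24a6 had 34.6, 31.8 and 31.4 in the GFP IPs, 6.19 and 5.47 in the PABP1 IPs, and 6.21, 6.13 and 5 in the inputs, 5.66-fold above input (log2 2.5 ± 0.13, adjusted p = 1.96e-05). Slc24a5, a cation exchanger known from pigment cells, was 4.27-fold above input (log2 2.09 ± 0.14, adjusted p = 3.48e-05). These 3 genes, Slc7a8 and Slc39a10 kept their higher call in all 20 alternative settings. Slc23a2, a sodium-dependent vitamin C transporter, had 2.59, 1.87 and 2.44 in the GFP IPs, 0.247 and 0.349 in the PABP1 IPs, and 0.527, 0.654 and 0.743 in the inputs, and it was 3.58-fold above input (log2 1.84 ± 0.21, adjusted p = 0.000278) and 7.75-fold above the PABP1 IP (log2 2.95 ± 0.24, adjusted p = 3.72e-05).

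**Figure D4:**
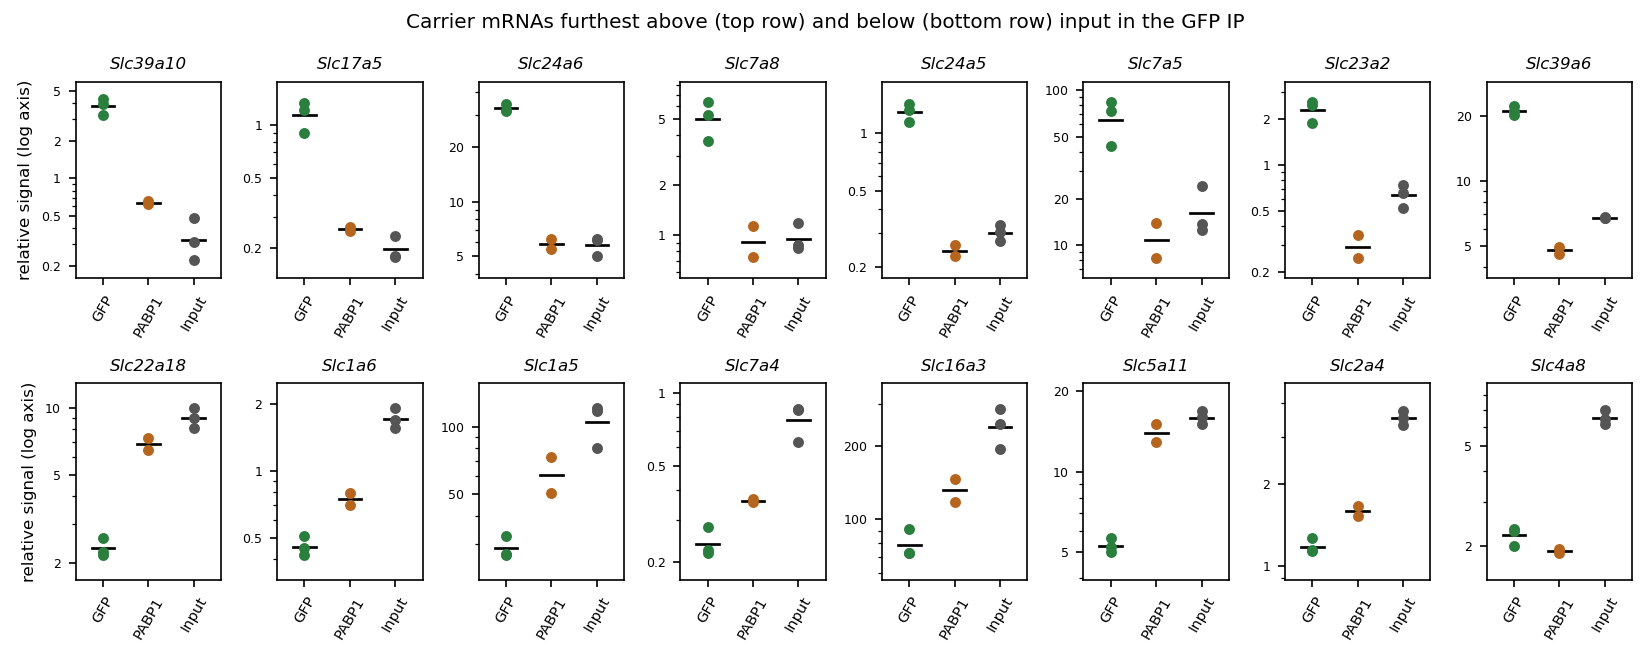
Relative signal (log axis, each panel with its own range) of the 8 members of families other than Slc25 with the highest (top row) and lowest (bottom row) log2 difference in GFP IP over input; points are arrays (3 GFP IPs, 2 PABP1 IPs, 3 inputs) and bars are means of log2 values. In each top panel all 3 GFP arrays lie above the inputs, by 11.8-fold for Slc39a10, and in each bottom panel all 3 lie below them, by 3.89-fold for Slc22a18.

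The lowest members in the GFP IP were of mixed function. Slc22a18, an imprinted gene of the organic cation transporter family, had a relative signal of 2.17, 2.58 and 2.24 in the GFP IPs, 7.34 and 6.45 in the PABP1 IPs, and 9.03, 10.0 and 8.14 in the inputs, 3.89-fold below input (log2 −1.96 ± 0.13, adjusted p = 4e-05). Slc5a11, a sodium-dependent inositol carrier, read 5.63, 5.22 and 5.03 in the GFP IPs, against 16.0, 16.8 and 15.0 in the inputs (log2 −1.59 ± 0.12, adjusted p = 4.87e-05). Slc4a8 was lower by −1.57 ± 0.11 (adjusted p = 4.98e-05). Of the 7 members with the stem Slc4, 5 were lower and 0 higher (6 and 0 at an unadjusted p under 0.05). Among all genes 47.5% were lower. These 7 are the bicarbonate transporters of the family together with Slc4a1ap, which is not itself a carrier. The GFP arrays lay below every input for Slc22a18, Slc5a11 and Slc4a8, and the calls of these 3 genes held in all 20 alternative settings. For the nucleoside transporter Slc29a1 the relative signal was 25.3, 27.2 and 23.7 in the GFP IPs, against 79.9, 77.2 and 53.3 in the inputs (log2 −1.45 ± 0.20, adjusted p = 0.0007).

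Between the IPs the widest gaps belonged to ion, vitamin and amino acid carriers on the side of the GFP IP. Slc4a7 read 60.8, 10.2 and 18.6 in the GFP IPs, against 1.89 and 3.84 in the PABP1 IPs (log2 3.07 ± 0.79, adjusted p = 0.00999), and this call was lost without PABP1 IP 1 (log2 2.56, adjusted p = 0.0687). Slc7a5 (2.58 ± 0.41), Slc39a10 (2.56 ± 0.31) and Slc12a2 (2.55 ± 0.37) came next after Slc23a2. Slc12a2 read 1.07, 1.77 and 1.26 in the GFP IPs, against 0.264 and 0.197 in the PABP1 IPs, with no overlap. On the side of the PABP1 IP, Slc11a1 read 1.59, 1.77 and 1.60 in the GFP IPs, against 8.07 and 6.99 in the PABP1 IPs, 4.53-fold lower in the GFP IP (log2 −2.18 ± 0.15, adjusted p = 2.34e-05). The urea transporter Slc14a2 (−2.11 ± 0.29), the sugar carrier Slc5a10 (−1.99 ± 0.23), the Golgi nucleotide sugar carrier Slc35b4 (−1.81 ± 0.17) and the urate transporter Slc22a12 (−1.80 ± 0.49) were the next lowest outside Slc25. Both further probes of Slc35b4 went the other way (log2 0.69 and 0.50), and the mean of its probes gave −0.21, so its direction is uncertain. Slc22a12 was not called without PABP1 IP 1 (log2 −1.56), a fit with a single PABP1 array.

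Other transport genes are given for comparison. In GFP IP over input 22.5% of all genes were higher and 47.5% lower, and in PABP1 IP over input 36.4% and 28.2%. Of 20 genes of the ABC transporter superfamily, 4 were higher and 10 lower in GFP IP than in input. In PABP1 IP over input 2 were higher and 11 lower, and the medians were −0.36 and −0.57. These 20 include Abce1, Abcf1, Abcf2 and Abcf3, which are not membrane transporters. Of 20 genes of P-type ATPases and their subunits, 7 were higher and 8 lower in the GFP IP. In the PABP1 IP 2 were higher and 8 lower, and the medians were −0.17 and −0.36. Among 4 accessory subunits of carriers, the member Slc3a2 included, Bsg, the chaperone of the lactate carriers, was higher in PABP1 IP than in input by 2.03 ± 0.13 (adjusted p = 2.88e-05) and Nptn by 1.27 ± 0.16 (adjusted p = 0.000379), while Slc16a1 and Slc16a3, the carriers that Bsg escorts, were at −0.87 ± 0.33 (adjusted p = 0.0569) and −0.86 ± 0.21 (adjusted p = 0.00896). Xpr1, a phosphate exporter, was lower there by −2.15 ± 0.20 (adjusted p = 0.000107).

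A gene's probes did not always go together, and the sources used here do not place them in the transcripts. In all, 39 members had 44 further probes on all arrays. For called members these had the same sign as the probe used in 23 of 29 cases in GFP IP over input, 21 of 26 in PABP1 IP over input and 25 of 28 between the IPs. Where they differed in sign, the gene's direction is uncertain; in PABP1 IP over input this held for Slc25a3 in the Slc25 family, and for Slc20a2, Slc31a2 and Slc25a17 the further probe went the same way (log2 1.29, 1.61 and 1.37).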

How the data were processed

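The intensity values were made by the authors with Agilent Feature Extraction 9.1.3.1 (protocol GE1-v5_95_Feb07, array design 014868, 1-colour Cy3), which subtracted background, removed spatial trends and replaced dim spots by a surrogate, per the file headers. Other deposited values were the flags for detection, saturation and outlier spots. The authors' table of mean intensities per group (medians 1.02 for each IP and 0.995 for input) served as an alternative without a test; its array scaling is not stated, and its 3 standard error columns name no group and were not used.

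Processed intensity was taken to log2 minus the array's 75th percentile, spots of a probe were averaged (41174 probes, 32 with outlier spots left out), and a gene was represented by its brightest probe. The 164 members were named through RefSeq (GRCm38.p6; 153 by accession, 11 by symbol). Genes detected on all arrays of 1 group or more (14728) were fitted in R 4.3.3 by limma 3.58.1 (lmFit with eBayes, 5 residual and 2.1 prior degrees of freedom, two-sided, Benjamini-Hochberg adjustment), after the fit was tested on simulated data. Fold changes are differences of log2 relative signal. The number of arrays limits the precision.

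The members, lists, tests and alternatives were chosen with earlier results of these data known. Named are the Slc25 members, the 8 highest and 8 lowest called members of other families in GFP IP over input and the 5 and 5 in each other comparison (groups not overlapping), a list of well-known carriers, and names at the edge of detection; 2 members counted in the sets are not reported here by name. Lists of transport genes and of ES cell, feeder and germ cell markers were described by counts and medians. Of 6 germ cell markers on all arrays, 5 were higher in GFP IP than in input, where 22.5% of all genes were. Mael did not pass the limma test (log2 −0.69 ± 0.38, adjusted p = 0.142). Nanos3, tested but not on all arrays, was lower (−1.34 ± 0.26, adjusted p = 0.0035). Replicate numbers did not pair the arrays (correlations of deviations −0.77 to 0.76 over 7 same-numbered pairs).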

Additional observations from a re-analysis of the deposited data

Results flagged for a closer look

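Some carrier genes outside the 164 members were detected on all arrays of an IP and on none of the inputs, so only a bound on their fold can be given: the mean of the brighter group over the higher of the dim group's own signal and the lowest signal well above background on each array. These genes were chosen by that detection pattern and by passing the fit in the same comparison, so the bounds are a description with no test. In GFP IP over input the bounds were at least 4.98-fold for Slc35a5, 1.77-fold for Slc25a16, a mitochondrial carrier, 1.67-fold for the zinc carrier Slc30a4 and 1.41-fold for the iron exporter Slc40a1. In PABP1 IP over input they were at least 1.82-fold for Slc25a16, 1.71-fold for Slc22a20, 1.64-fold for the amino acid carrier Slc36a2, 1.38-fold for the glucose transporter Slc2a2, 1.31-fold for the mitochondrial carrier Slc25a23 and 1.26-fold for the anion carrier Slc26a9. Slc25a16 was above background in both IPs and in no input. The reverse pattern was seen for Slc25a2, of the same family. It was detected on all inputs and all GFP IPs and on no PABP1 IP. Its bound was at least 3.25-fold lower in PABP1 IP than in input. Groups of 3 or fewer arrays are too small for a check of single arrays that stand apart.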

How the results depend on the processing

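Normexp and scaling moved the counts, and the cause was not tested. With each array scaled to its median spot, 42 members were lower in GFP IP over input, 52 higher and 41 lower between the IPs, and 4 Slc25 mRNAs lower in GFP IP over input. With the percentile over detected probes, 56 members and 8 Slc25 mRNAs were higher and 48 members lower between the IPs. Centred on the median gene, 47 members and 6 Slc25 mRNAs were lower in GFP IP over input, and 64 members and 8 Slc25 mRNAs higher and 30 members lower between the IPs. Normexp left 5 higher and 15 lower members in GFP IP over input, 6 and 6 for the PABP1 IP against input, 14 and 30 between the IPs; for Slc25 it left 0 and 0 (3 and 3 at an unadjusted p under 0.05), 3 and 1, and 0 higher between the IPs (also 0 unadjusted). The Slc25 median minus that of the other families (0.06, 0.89 and −0.49) became −0.05, 0.59 and −0.63 with normexp, 0.19, 0.72 and −0.11 with quantile normalization, −0.40 between the IPs when a gene's probes were averaged, and 0.34 and 0.99 for the first comparisons in the authors' deposited table, where the fit on the same 111 members gave 0.35 and 1.00. Over 121 members with a mean signal of at least 100, a choice made after seeing the data, it was 0.99 for the PABP1 IP against input and −0.87 between the IPs. Leaving out 1 array gave 32 to 36 higher and 69 to 80 lower members in GFP IP over input, 29 to 44 and 35 to 49 in PABP1 IP over input, and 28 to 35 and 60 to 76 between the IPs. For Slc25 it gave 6 and 11, 12 to 15 and 3 to 4, and 4 to 5 and 12, with median differences of −0.03 to 0.06, 0.77 to 0.90 and −0.52 to −0.41. The replicate block gave 36 and 75, 39 and 46, and 34 and 66 members, and for Slc25 6 and 11, 15 and 4, and 5 and 12; the numbers did not pair the arrays. Slide as a block gave 41 and 91, 61 and 61, and 46 and 89 members. Named genes that changed sign in GFP IP over input included Slc25a5 (0.01 with median scaling, 0.00 with quantile), Slc3a2 (0.06, 0.01 and 0.03 with median scaling, quantile and centring), Slc39a1 (0.46 with median scaling), Slc25a12 (0.39 with centring) and Slc6a6 (0.58 with the mean of probes). Between the IPs these included Slc25a12 (0.36, 0.35 and 0.64 with detected probes, quantile and centring), Slc2a1 (1.2), Slc16a3 (0.44) and Slc3a2 (0.81) with quantile, Slc20a1 (0.66 with quantile, 0.60 with centring), and, at up to 0.44, 0.37 and 0.24 with centring, Slc25a17, Slc25a22 and Slc39a1.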
